A study of Sus scrofa with 6 samples.

Results

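CXCL2, CXCL8, NFKBIA and SLPI were followed across pig induced pluripotent stem (iPS) cell lines and somatic cells. Every probe set (a group of array probes read as 1 value) whose platform annotation gave exactly 1 of these symbols was taken. This gave 4 probe sets, 1 for each gene, among the 23999 on the array that are not array controls. The 4 are among 6765 genes that the annotation names on such single-symbol probe sets. The genes were chosen by values of these same arrays, their levels in the iPS lines and in particular the large differences of CXCL2 and SLPI between the classes of lines. Comparisons among the iPS lines are therefore given for them as a description, with no test.

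The study set iPS lines of its own laboratory beside lines of other laboratories, and hybridised total RNA of 6 samples to the Affymetrix Pig Genome Array, each to 1 array. Which laboratory made which line is not labelled. The iPS lines PS24, labelled positive for the surface antigens SSEA1, SSEA3 and SSEA4, and 30AC5, labelled positive for SSEA1, are called the SSEA1-labelled lines here. The iPS lines iPF4-2 and iPSCs-w, labelled positive for SSEA3 and SSEA4, are called the SSEA3/SSEA4-only lines. The somatic samples were PEF, a culture of embryo fibroblasts, and PAFSC, amniotic fluid stem cells. All cells were grown in DMEM with fetal bovine serum, and the iPS lines were kept on growth-arrested mouse embryonic fibroblasts as feeders. Each line or cell type is 1 sample, not stated to stand for repeated cultures, so that the p-values rest on the spread among these 6 samples alone.

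NF-kappaB is a family of transcription factors that is held in the cytoplasm by inhibitor proteins and released when receptors for bacterial products or inflammatory cytokines are engaged. NFKBIA encodes the inhibitor IkappaB-alpha, and the gene is itself a target of NF-kappaB, which closes a feedback loop. CXCL2 and CXCL8 are classical target genes of the pathway in human and other mammalian cells. They encode chemokines that attract neutrophils through the receptor CXCR2 and, for CXCL8, also through CXCR1. SLPI encodes a secreted inhibitor of neutrophil elastase and related proteases that is made by many epithelia and, in human and mouse phagocytes, also dampens NF-kappaB signalling.

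Each value is a log2 value relative to a baseline of its own probe set, so levels are compared between arrays for 1 gene at a time. A rank on an array is a rank among relative values and says nothing of the amounts of RNA of different genes. Neither the log base nor the baseline is stated, and base 2 was taken from the range of the values. The PAFSC array had a far wider spread than the others. Over its probe sets the SD came to 2.01, against 0.610 to 0.808 on the other 5 arrays, and 17.2% of its probe sets lay at 2 or higher, against 1.01% to 2.7% elsewhere. The 5' minus 3' value of the control genes GAPDH, actin and EF1A averaged -1.90 on PS24 and 1.90 on PAFSC, and between -0.03 and 0.19 on the other 4 arrays. The part of these differences between arrays in the values below was not tested. Of 5 measured pluripotency markers, 5 were lower in both SSEA1-labelled lines than in both SSEA3/SSEA4-only lines, as were 20.2% of all probe sets. POU5F1, the pluripotency factor OCT4, was 0.07 (PS24) and -0.07 (30AC5), against 3.68 (iPF4-2) and 3.61 (iPSCs-w).

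CXCL2 was among the highest relative values on both SSEA1-labelled arrays and near its baseline in the SSEA3/SSEA4-only lines. It was 7.06 (PS24) and 5.24 (30AC5), against -0.35 (iPF4-2) and 0.02 (iPSCs-w). In the somatic samples it was 5.09 in PEF and 1.45 in PAFSC. The embryo fibroblasts thus lay level with 30AC5, and the iPS lines split on either side of the somatic range.

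The CXCL2 value took rank 2 of 23999 on the PS24 array, rank 10 on 30AC5 and rank 41 on PEF. On iPF4-2 and iPSCs-w, 16.5% and 52.7% of probe sets were lower than it. On PAFSC 66.9% were lower, so its value of 1.45 there was an ordinary one for that array. The gap between PS24 and 30AC5, neighbours in the order of levels, was 1.82, larger than the SD of 0.704 of that array difference over all probe sets. The gaps from 30AC5 to PEF (0.15, SD 0.972), from PAFSC to iPSCs-w (1.43, SD 2.17) and from iPSCs-w to iPF4-2 (0.38, SD 0.737) lay within 1 such SD.

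CXCL8, the interleukin-8 gene, was high in 30AC5 and in the embryo fibroblasts only. It was 0.07 (PS24) and 4.27 (30AC5), against 0.45 (iPF4-2) and -0.31 (iPSCs-w). It was 6.59 in PEF and 0.86 in PAFSC. PS24 therefore lay between the SSEA3/SSEA4-only lines and 30AC5 above them, so that the classes overlapped.

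CXCL8 took rank 33 on the 30AC5 array and rank 10 on PEF. On PS24 it held only rank 11286 and on PAFSC rank 11215, near the middle of both arrays. The gap from PEF to 30AC5 was 2.31 (SD over probe sets 0.972) and that from 30AC5 to PAFSC 3.41 (SD 2.09). Below these, PAFSC, iPF4-2, PS24 and iPSCs-w followed each other by gaps of 0.41, 0.38 and 0.38, each within 1 SD of its array difference.

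NFKBIA, the feedback inhibitor, had the same 3 samples high as CXCL2, at a smaller distance. It was 2.04 (PS24) and 1.75 (30AC5), against -0.21 (iPF4-2) and -0.12 (iPSCs-w). It was 2.30 in PEF and -3.85 in PAFSC. PS24, 30AC5 and PEF were not ordered: their gaps of 0.26 and 0.29 lay within 1 SD (1.03 and 0.704) of their array differences. That SD over all probe sets holds differences between the cells as well as error. With 1 array per sample no error is known for NFKBIA alone. The gap from 30AC5 to iPSCs-w was 1.87, larger than the SD of 0.941, and the gap from iPF4-2 to PAFSC was 3.64, larger than the SD of 2.05. Of the PAFSC array, 4.71% of probe sets were lower than NFKBIA, and 2064 of its values lay below -3, against 29 to 125 on the other arrays.

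SLPI, the protease inhibitor, was high in the SSEA1-labelled lines and in neither somatic sample. It was 6.99 (PS24) and 4.92 (30AC5), against -0.63 (iPF4-2) and 0.26 (iPSCs-w). It was 0.71 in PEF and 1.43 in PAFSC. SLPI took rank 4 on the PS24 array and rank 15 on 30AC5. PAFSC, PEF and iPSCs-w were neighbours within 1 SD, with gaps of 0.72 (SD 2.09) and 0.45 (SD 1.22). The gap of 0.89 from iPSCs-w to iPF4-2 was larger than the SD of 0.737, and that of 2.07 from PS24 to 30AC5 larger than the SD of 0.704.

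**Figure D1:**
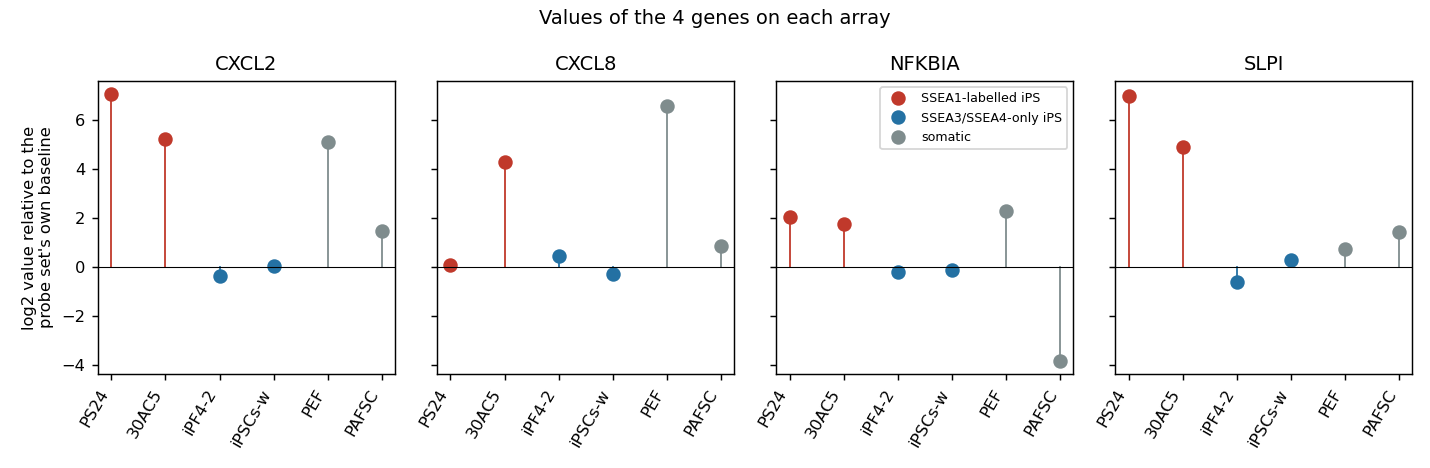
Log2 values of CXCL2, CXCL8, NFKBIA and SLPI (vertical axis, relative to each probe set's own baseline) on the 6 arrays (horizontal axis), 1 point per array, coloured by class. CXCL2 and NFKBIA stand high in PS24, 30AC5 and PEF, CXCL8 in 30AC5 and PEF, and SLPI in PS24 and 30AC5.

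The order of the samples differed between the 4 genes. PS24 was the highest sample for CXCL2 and SLPI but the fifth for CXCL8. 30AC5 was the second for CXCL2, CXCL8 and SLPI and the third for NFKBIA. PEF was the highest for CXCL8 and NFKBIA, the third for CXCL2 and the fourth for SLPI. After each gene was centred on its mean over the 6 arrays, the root mean square difference between CXCL2 and SLPI was 1.61, the smallest of the 6 pairs. It was 2.14 between CXCL2 and NFKBIA, 2.76 between CXCL2 and CXCL8, and 3.74 between CXCL8 and SLPI, the largest. The PS24 minus 30AC5 difference was 1.82 for CXCL2, 2.07 for SLPI and 0.29 for NFKBIA, against -4.20 for CXCL8. Of all probe sets, 0.0917% differed between PS24 and 30AC5 by as much as CXCL8 in size.

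Set between the classes, the SSEA1-labelled mean of CXCL2 was 6.15, against -0.17 in the SSEA3/SSEA4-only lines, a difference of 6.31 (pooled SD within the classes 0.929). SLPI averaged 5.95 in the SSEA1-labelled and -0.18 in the SSEA3/SSEA4-only lines, a difference of 6.14 (pooled SD 1.13). NFKBIA averaged 1.90 in the SSEA1-labelled and -0.16 in the SSEA3/SSEA4-only lines, a difference of 2.06 (pooled SD 0.151). CXCL8 averaged 2.17 in the SSEA1-labelled lines, against 0.07 in the SSEA3/SSEA4-only lines, and its difference of 2.10 was smaller than its pooled SD of 2.13. These differences ranked 5 (CXCL2), 7 (SLPI), 360 (CXCL8) and 370 (NFKBIA) of 23999 from the top, where 1.63% of all probe sets differed by 2 or more and 0.25% by 4 or more. The classes did not overlap for CXCL2, SLPI and NFKBIA, whose SSEA1-labelled lines lay higher, as they did for 21% of all probe sets. The smallest gaps between the classes were 5.22 for CXCL2, 4.65 for SLPI and 1.87 for NFKBIA. With PS24 left out the CXCL8 difference was 4.20, and with 30AC5 left out it was 0.0013.

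The comparison of the 4 iPS lines with the 2 somatic samples did not separate the groups for any of the 4 genes. The genes were chosen by their levels in these same iPS lines, so their p-values here are descriptive too. CXCL2 averaged 2.99 ± 3.72 (SD, n = 4) in the iPS lines and 3.27 in the somatic samples. Its difference of -0.28 (SE 2.13, limma adjusted p = 0.939) changed sign after quantile normalization, after centring the arrays and without PEF, iPF4-2 or iPSCs-w. CXCL8 averaged 1.12 ± 2.12 (SD, n = 4) in the iPS lines and 3.73 in the somatic samples, a difference of -2.60 (SE 1.70, limma adjusted p = 0.445). Without PEF the CXCL8 difference was 0.26. SLPI averaged 2.88 ± 3.66 (SD, n = 4) in the iPS lines and 1.07 in the somatic samples, a difference of 1.81 (SE 1.96, limma adjusted p = 0.570).

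NFKBIA averaged 0.87 ± 1.20 (SD, n = 4) in the iPS lines and -0.77 in the somatic samples, a difference of 1.64 (SE 1.51, limma adjusted p = 0.517). The somatic mean stood between the 2.30 of PEF and the -3.85 of PAFSC, and the direction turned when PAFSC was left out. Without PEF the NFKBIA difference was 4.71, and without PAFSC it was -1.43. Either fit leaves the other somatic sample alone in its group. Over all 23999 probe sets limma called 6 in this comparison (0.025%), 2 of them higher in the iPS lines (0.00833%) and 4 lower (0.0167%), and 0 of the 4 genes, and 3276 had an unadjusted p under 0.05. The groups did not overlap for 11.9% of probe sets with the iPS lines higher and for 9.99% with them lower, and for 0 of the 4 genes. A difference of 2 or more was found for 6.18% of probe sets and one of -2 or less, as for CXCL8, for 2.47%.

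Other genes of the pathway were read from lists of its core, upstream parts and targets, leaving out the 4 genes and taking for each gene the probe set with the highest mean over the arrays. Between the iPS classes limma called 0 of 23999 probe sets, with 681 at an unadjusted p under 0.05, so none of the list genes passed. The spread behind these SEs and p-values also holds the difference between PEF and PAFSC, which were fitted together as the somatic group. TLR8, a receptor of the upstream list, had an SE of 0.996 for the class difference. Its iPS values ran from -0.11 to 0.23, with -0.01 in PEF and 3.12 in PAFSC. Of 6 other core genes 2 were higher and 1 lower in the SSEA1-labelled lines without overlap, against 21% and 20.2% of all probe sets. Their median difference was -0.0096, against 0.0051 over all probe sets. NFKB1, a DNA-binding subunit precursor, was 0.37 (PS24) and 0.09 (30AC5), against 0.34 (iPF4-2) and -0.25 (iPSCs-w). CYLD, a deubiquitinase that restrains the pathway, had the largest difference of this list at 0.82 (SE 0.68, limma adjusted p = 1.00), with 0.79 in 30AC5 and -0.05 in PS24. NFKBIB, the sister inhibitor of NFKBIA, differed by 0.09 (SE 0.75). Another NFKBIB probe set differed by 0.68, with 1.04 (PS24) and 0.77 (30AC5), against 0.27 (iPF4-2) and 0.18 (iPSCs-w).

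Among 19 measured genes upstream of NF-kappaB (receptors, adaptors and kinases), 7 were higher without overlap in the SSEA1-labelled lines (36.8%, against 21% of all probe sets) and 0 lower (against 20.2%), with a median difference of 0.17. LY96, the MD-2 partner of the lipopolysaccharide receptor TLR4, was 0.14 (PS24) and -0.14 (30AC5), against -3.37 (iPF4-2) and -1.69 (iPSCs-w). Its difference of 2.53 (SE 0.97) was the largest of the list. CD40, a receptor of the TNF receptor family, differed by 1.46 (SE 0.90), and TNFRSF1B, the second TNF receptor, by 0.90 (SE 0.78). Other CD40 probe sets differed by 2.25 and 0.77. TLR4 itself differed by -0.19 (SE 0.96), and its 5 probe sets ran from -0.28 to 0.26. LY96, CD40, TNFRSF1B and TLR4 each had a limma adjusted p of 1.00 on the probe set taken for the list.

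Among 29 other target genes, 7 were higher (24.1%, against 21% of all probe sets) and 4 lower (13.8%, against 20.2%) in the SSEA1-labelled lines without overlap, and the median difference was 0.05. IL18, a cytokine of the interleukin-1 family, had the largest difference of this list. It was 2.18 (PS24) and 1.61 (30AC5), against -2.97 (iPF4-2) and -1.33 (iPSCs-w), and 1.99 in PEF and 1.33 in PAFSC. Its difference of 4.05 (SE 0.76) did not pass the test (limma adjusted p = 0.398). F3, the tissue factor that starts coagulation, differed by 2.84 (SE 1.64), with 4.58 in 30AC5 and -0.00088 in PS24. CD83, a surface protein of activated immune cells, differed by 1.90 (SE 0.65). Another CD83 probe set differed by 0.30, with 0.17 (PS24) and 0.22 (30AC5), against -0.04 (iPF4-2) and -0.18 (iPSCs-w). Targets on the other side were TNFAIP6, a secreted hyaluronan-binding protein, at -1.88 (SE 1.01), PTGS2, the inducible cyclooxygenase, at -1.77 (SE 1.26), and IL1A, a cytokine, at -1.31 (SE 0.75). F3, CD83, TNFAIP6, PTGS2 and IL1A each had a limma adjusted p of 1.00.

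**Figure D2:**
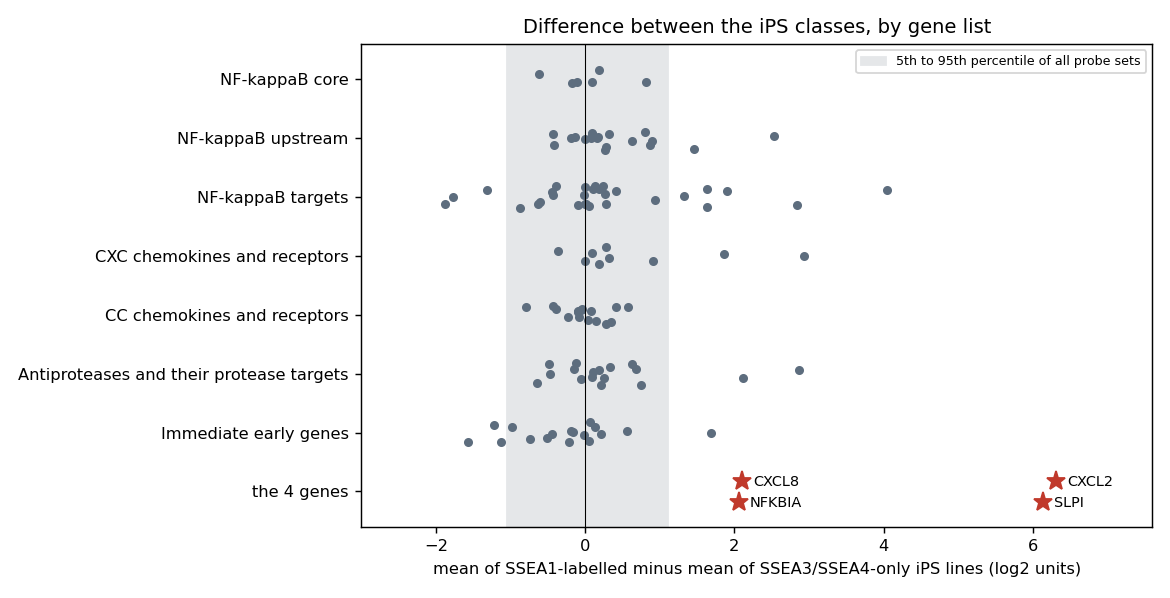
Difference of the SSEA1-labelled minus the SSEA3/SSEA4-only mean (horizontal axis, log2 units) for each measured gene of 7 lists (1 dot per gene, rows) and for CXCL2, CXCL8, NFKBIA and SLPI (stars), with the range from the 5th to the 95th percentile of all probe sets, -1.04 to 1.12, in grey. CXCL2 at 6.31 and SLPI at 6.14 lie beyond every other gene shown, and most list genes lie within the grey range.

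Target genes at a value of 2 or more were frequent in the somatic samples and rare in the iPS lines. Of the 29, PS24 and 30AC5 held 1 each (3.45%), iPF4-2 held 2 (6.9%) and iPSCs-w 0, against 9 in PEF (31%) and 12 in PAFSC (41.4%). Of all probe sets 1.01% to 1.29% were as high on the iPS arrays, 2.7% on PEF and 17.2% on PAFSC. High shares in the somatic samples were not particular to the targets. Over the other lists the share ran from 0% (core) to 52.9% (immediate early genes) in PEF. In PAFSC it ran from 11.8% (antiproteases and their targets) to 62.5% (CC chemokines and receptors), and in the iPS lines from 0% to 22.2%. The choice of the probe set with the highest mean favours probe sets that are high on the wide PAFSC array. The 9 in PEF were F3, IRF1, VCAM1, GADD45B, IER3, CCL2, PLAU, IL1A and PTGS2. In the SSEA1-labelled lines they ran from -1.53 to 1.00 in PS24 and from -1.96 to 4.58 in 30AC5. F3 was the single one of them at 2 or more there, in 30AC5. VCAM1, a leukocyte adhesion protein, was 0.52 (PS24) and 1.22 (30AC5), against 4.39 (PEF). IRF1, an interferon regulatory factor, was 1.00 (PS24) and 0.51 (30AC5), against 2.14 (PEF). CCL2, a monocyte chemokine, was -1.04 (PS24) and 0.97 (30AC5), against 6.56 (PEF). VCAM1, IRF1 and CCL2 were thus lower in both lines than in PEF, and so were PLAU, PTGS2, GADD45B, IER3 and IL1A. F3 was lower than in PEF in PS24 only. These genes were picked for a value of 2 or more in PEF, which by itself favours lower values in other samples. PLAU, the urokinase protease, was -1.22 (PS24) and 0.39 (30AC5), against 5.07 (PEF). PTGS2 was -1.53 (PS24) and -1.96 (30AC5), against 3.72 (PEF). None of the 29 passed limma in the comparison of the iPS lines with the somatic samples, where their median difference was -1.48, against -0.34 over all probe sets. PLAU differed by -3.36 (SE 1.00, limma adjusted p = 0.277) and CCL2 by -3.70 (SE 1.43, limma adjusted p = 0.338).

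**Figure D3:**
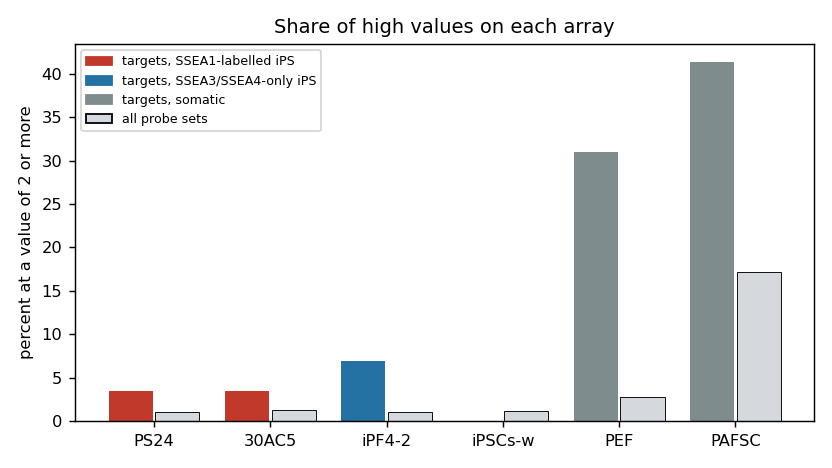
Percent of the 29 other NF-kappaB target genes (coloured bars, by class) and of all 23999 probe sets (grey bars) at a log2 value of 2 or more (vertical axis) on each array (horizontal axis). The targets stand at 31% in PEF and 41.4% in PAFSC, and at 0% to 6.9% in the 4 iPS lines.

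Among the chemokines, AMCF-II, a pig CXC chemokine, ran alongside CXCL8 on its probe set with the highest mean. It was 1.02 (PS24) and 4.62 (30AC5), against -0.21 (iPF4-2) and -0.02 (iPSCs-w), with 7.06 in PEF and 1.41 in PAFSC. Its class difference was 2.94 (SE 1.81, limma adjusted p = 1.00). On other AMCF-II probe sets the class difference was 1.73 and 0.66. The probe set at 0.66 did not follow CXCL8 closely, with 1.68 in 30AC5, 0.68 in iPSCs-w, 1.33 in PEF and -0.56 in PAFSC. In the RefSeq order of pig genes (assembly Sscrofa11.1), AMCF-II is the next protein-coding gene after CXCL8, and 4 protein-coding genes lie between CXCL8 and CXCL2 on the same chromosome. PPBP, the second of the 4, was between -0.10 and 0.30 on every array but PAFSC, where it was 2.31. The genes of this cluster resemble each other in sequence, and whether their probes take up each other's transcripts was not tested. CXCR4, the CXCL12 receptor, was 1.97 (PS24) and 3.13 (30AC5), against 0.59 (iPF4-2) and 0.79 (iPSCs-w); its class difference was 1.85 (SE 0.94, limma adjusted p = 1.00). Of 9 other measured CXC chemokines and receptors 3 were higher and 0 lower in the SSEA1-labelled lines without overlap, against 21% and 20.2% of all probe sets (median difference 0.28). Of 16 CC chemokines and receptors 2 were higher and 1 lower (median -0.05), and the differences ran from -0.79 (SE 0.87) for CCL28, a mucosal chemokine, to 0.57 (SE 0.84) for CCR7, a lymphocyte homing receptor.

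Around SLPI, 7 of 17 other measured antiproteases and their targets were higher in the SSEA1-labelled lines without overlap (41.2%, against 21% of all probe sets) and 2 lower (11.8%, against 20.2%), with a median difference of 0.19. WFDC2, a secreted protein with the same kind of whey acidic protein domain as SLPI, was 1.45 (PS24) and 3.79 (30AC5), against -1.85 (iPF4-2) and 1.35 (iPSCs-w); its class difference was 2.87 (SE 1.25, limma adjusted p = 1.00). SERPINB1, an intracellular inhibitor of neutrophil proteases, was 1.80 (PS24) and 1.40 (30AC5), against -1.01 (iPF4-2) and -0.02 (iPSCs-w). Its class difference was 2.12 (SE 0.70, limma adjusted p = 1.00). On other probe sets the class difference was smaller, at 0.70 for WFDC2 and at 0.77 and 0.22 for SERPINB1. PI3, the elastase inhibitor elafin and the third protein-coding gene before SLPI in the gene order, was between -0.38 and 0.16 on every array but PAFSC (1.37). SDC4, a surface proteoglycan and the third after it, differed by -0.03 between the classes. ELANE, the neutrophil elastase that SLPI inhibits, was 0.22 (PS24) and -0.25 (30AC5), against 0.01 (iPF4-2) and -0.42 (iPSCs-w).

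Of 17 measured immediate early genes, which respond to serum and handling, 0 were higher (against 21% of all probe sets) and 6 lower (35.3%, against 20.2%) in the SSEA1-labelled lines without overlap. The median difference was -0.19. FOS, a subunit of the factor AP-1, was 1.76 (PS24) and -0.38 (30AC5), against 2.56 (iPF4-2) and 1.95 (iPSCs-w), and 3.31 in PEF. DUSP1, a phosphatase of stress kinases, was -1.22 (PS24) and -1.92 (30AC5), against 0.28 (iPF4-2) and -0.97 (iPSCs-w), and 3.02 in PEF. The largest positive differences were 1.68 (SE 0.95) for FOSL2, another AP-1 subunit, and 0.56 (SE 1.12) for EGR1, a zinc finger factor. Other EGR1 probe sets differed by 0.62 and by -0.62. These 4 genes each had a limma adjusted p of 1.00 between the classes.

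The nearest profiles among named probe sets were found by the root mean square difference of centred values over the 6 arrays. For CXCL8 these were AMCF-II (0.49, and 0.82 for a second probe set), CLDN11, a tight junction protein (0.79), GBP1, an interferon-induced GTPase (0.80), and F3 (0.80). The root mean square of the CXCL8 profile itself was 2.55. F3 was 4.58 in 30AC5 and 4.40 in PEF and between -1.10 and 0.71 elsewhere. For SLPI the nearest was MAL2, a protein of epithelial vesicle transport (0.74 against 2.73 for the SLPI profile). MAL2 was 5.64 (PS24) and 5.19 (30AC5), against -1.90 (iPF4-2) and 0.17 (iPSCs-w). A second MAL2 probe set was 0.22 (PS24) and 0.44 (30AC5), against -0.19 (iPF4-2) and -0.24 (iPSCs-w). PLA2G7, a secreted phospholipase, and HOXA9, a homeobox factor, followed at 1.05 each, and MOBP and SFRP1 at 1.39 each.

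For CXCL2 the nearest were 2 probe sets with only a locus number (0.76 and 1.01, against 2.84 for the CXCL2 profile), NFIB, a nuclear factor I transcription factor (1.14 and 1.27 for its probe sets), and HOXA9 (1.24). NFIB at 1.14 was 2.56 (PS24) and 0.47 (30AC5), against -2.70 (iPF4-2) and -2.60 (iPSCs-w), and 3.41 in PEF. For NFKBIA they were PLOD1, a collagen lysyl hydroxylase (0.26), LGALS1, a galectin (0.37), LAMP2, a lysosomal membrane protein (0.43), PTGFRN (0.47) and CAST, the calpain inhibitor (0.48), against 2.11 for its own profile. These 5 shared with NFKBIA a PAFSC value between -4.75 and -3.02, the largest departure of each from its mean.

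**Figure D4:**
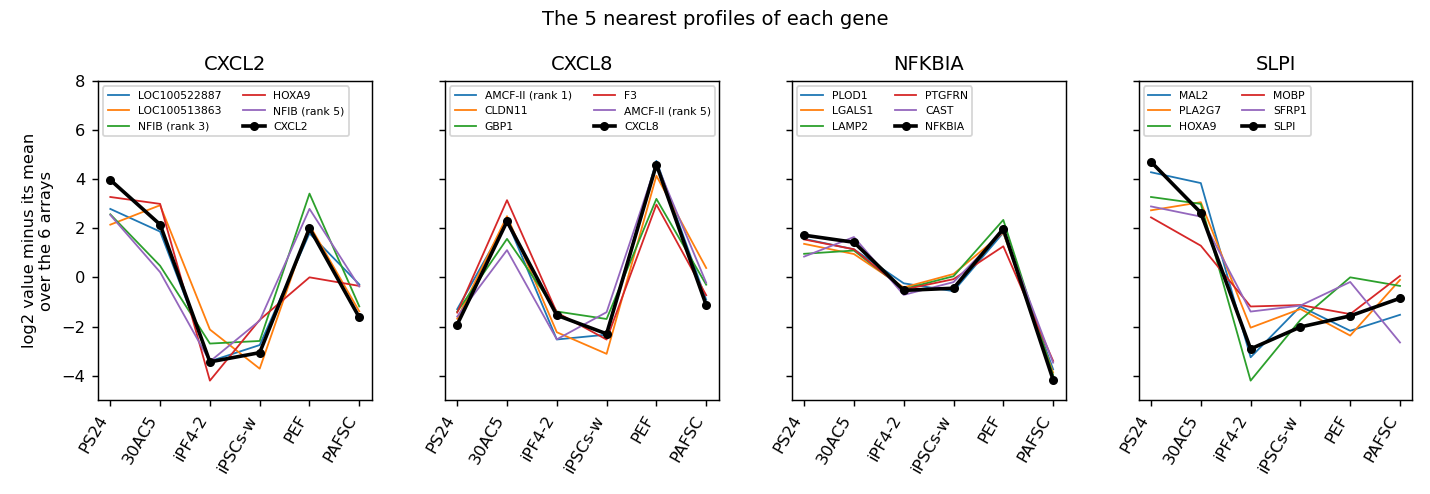
Profiles of CXCL2, CXCL8, NFKBIA and SLPI (black) and the 5 nearest named probe sets of each (coloured) over the 6 arrays (horizontal axis). The vertical axis gives the log2 value minus its mean over the arrays. CXCL8 runs with the AMCF-II probe sets shown, while NFKBIA and its neighbours share the low PAFSC value.

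Markers of other cells were set beside these values. The mean over 13 measured leukocyte and macrophage markers was 0.08 (PS24) and -0.02 (30AC5), against 0.42 (iPF4-2) and 0.49 (iPSCs-w), and -0.27 in PEF and 1.61 in PAFSC. Of the 13, 4 were higher and 2 lower in the SSEA1-labelled lines without overlap, against 21% and 20.2% of all probe sets, and the median difference was 0.10. Their sums ran from -0.28 to 1.08 in the SSEA1-labelled lines, from 5.52 to 6.43 in the SSEA3/SSEA4-only lines and from -3.51 to 20.9 in the somatic samples. AIF1, a macrophage protein, was -1.63 (PS24) and -1.86 (30AC5), against 3.87 (iPF4-2) and 3.74 (iPSCs-w), and S100A9, a calcium-binding protein of neutrophils, was 3.40 in iPSCs-w. Without AIF1 and S100A9, left out after their values were seen, the sums were 2.65 (PS24) and 1.68 (30AC5), against 1.15 (iPF4-2) and -0.72 (iPSCs-w), so that the order of the classes turned. PTPRC, the common leukocyte antigen, was 0.17 (PS24) and -0.01 (30AC5), against 0.18 (iPF4-2) and -0.02 (iPSCs-w). Of 13 epithelial markers 2 were higher and 8 lower in the SSEA1-labelled lines without overlap, against 21% and 20.2% of all probe sets, and their sums were 1.92 and 11.9 in these lines, against 15.6 and 24.6 in the SSEA3/SSEA4-only lines. The 2 higher ones were MAL2 and SPINT2, a protease inhibitor, whose other probe set differed by -1.35. EPCAM, an adhesion protein of epithelia, was -0.16 (PS24) and -1.03 (30AC5), against 3.18 (iPF4-2) and 4.98 (iPSCs-w). Of 11 fibroblast markers 4 were higher and 0 lower, against the same 21% and 20.2%, with sums from -0.61 to 1.06 in the SSEA1-labelled lines, from -12.1 to 5.98 in the SSEA3/SSEA4-only lines and from 30.6 to 38.7 in the somatic samples. Of 7 amniotic fluid and mesenchymal stem cell markers 5 were higher and 0 lower (median difference 0.66), with sums of 1.36 (PS24) and 4.48 (30AC5), against -2.46 (iPF4-2) and -0.83 (iPSCs-w), and 12.7 in PEF and 4.04 in PAFSC. Of 9 endothelial markers 3 were higher and 2 lower (median difference 0.31), with sums of 7.25 (PS24) and 2.37 (30AC5), against -0.32 (iPF4-2) and 0.21 (iPSCs-w), and SELP, an adhesion protein of platelets and endothelium, was 5.07 in PS24. The part of other cell types in the levels of the 4 genes was not tested. In cultures read in bulk, fewer expressing cells and less RNA per cell cannot be told apart, and relative values cannot show that a marker is absent.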

How the data were processed

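Gene expression was measured in 6 pig samples on the Affymetrix Pig Genome Array from biotin-labelled RNA, per the labels' protocols. The deposited table holds log2 values for 24123 probe sets with 0 missing. What software and baseline the authors used to make them is not stated in the labels. The median over the 6 arrays was 0, to within rounding, for 3.48% of probe sets, so the baseline is not that median. The 124 array controls were left out. The platform annotation gave 1 symbol to 10069 probe sets, several to 198 and none to 13732. The 4 symbols were also found in the RefSeq gene table.

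Both comparisons were fitted with limma 3.58.1 in R 4.3.3 (moderated tests, two-sided, Benjamini-Hochberg over 23999 probe sets, threshold 0.05), checked on simulated data. The iPS against somatic fit had 2 groups and 4 residual degrees of freedom. The fit of the iPS classes had 3 groups and 3. Precision is limited by the number of arrays.

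The genes and the 7 lists (196 genes, 112 measured) were chosen with earlier results of these data known. The naming rule took the 3 largest differences per direction, list and comparison, and the 5 nearest profiles of each gene. A part is printed. The targets high in PEF, the marker genes, ELANE, NFKB1 with its values and the gene order neighbours were chosen after their values were seen. Alternatives were quantile normalization, median centring, leaving out the lowest 40% by mean, eBayes with a trend or robust, averaging a gene's probe sets, and leaving out each sample.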

Additional observations from a re-analysis of the deposited data

Results flagged for a closer look

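Among the 4 iPS lines, a gap between 1 line and the nearest other was set against the whole range for 80 named probe sets, and 5 exceeded the 95% critical value of Dixon's test for 4 samples. Chance flags about 1 in 20 groups, but the probe sets were named for their values on these arrays, so that this rate does not apply to them. For CXCL8, at 4.27 in 30AC5 with a gap of 0.834 of the range, this is a description and no test, since the gene was chosen by values of these lines. The same holds for GBP1, at 2.96 in 30AC5, which was taken for its likeness to CXCL8. TNFAIP6 stood apart in iPF4-2 at 3.52, CXCL13 in iPSCs-w at 0.68 and KLF4, a reprogramming factor, in PS24 at -2.91. These genes were named for extreme differences that include these same lines, so their flags are descriptions too. Another CXCL13 probe set was 0.05 in iPSCs-w and between -0.23 and -0.01 in the other iPS lines.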

How the results depend on the processing

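Between the iPS classes CXCL2, CXCL8, NFKBIA and SLPI kept a positive difference under every alternative run. Without single samples it ran from 5.40 to 7.22 for CXCL2, from 5.10 to 7.17 for SLPI, from 1.92 to 2.20 for NFKBIA and from 0.0013 to 4.20 for CXCL8. Quantile normalization gave NFKBIA 2.48. Leaving out the lowest 40% by mean kept all 4 genes. Neither that filter nor leaving out PEF or PAFSC can change these differences, which rest on the 4 iPS lines alone. For CXCL2, SLPI and NFKBIA the classes did not overlap, so leaving out 1 iPS line could not turn the sign either. The 4 genes were also chosen by values of these lines, so the kept direction is a description. In the iPS against somatic comparison SLPI kept its direction, from 0.44 to 2.98, and stayed above the threshold p in each alternative. CXCL2 was 0.85 after quantile normalization, 0.018 after median centring and from -2.10 to 1.54 without single samples (0.83 without iPF4-2, 0.71 without iPSCs-w and 1.54 without PEF). CXCL8 ran from -5.46 to 0.26 and NFKBIA from -1.43 to 4.71 without single samples. With both somatic samples kept, the limma adjusted p of NFKBIA ran from 0.481 to 0.879. The limma count of probe sets there was 1 after median centring, 35 without the lowest 40%, 2 with a trend and from 0 to 14303 without single samples (136 without PAFSC, 14303 without PEF). Between the classes it was 90 after quantile normalization, 44 without the lowest 40% and from 0 to 4 without single samples. The cause was not tested; a fit without PEF or PAFSC takes its spread from the iPS lines alone. Medians of the lists in the iPS against somatic comparison moved with PAFSC left out: the upstream list was 0.07, the core list 0.26 and the CC chemokine list 0.05, against -1.05, -0.69 and -1.10 with it. With AIF1 and S100A9 left out, chosen after seeing the data, the SSEA1-labelled minus SSEA3/SSEA4-only difference of the leukocyte marker sum was 1.95, against -5.58 with them. No paired analysis was run, since each line or cell type is 1 sample and the labels give no pairs.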
